A study of Mus musculus with 12 samples.

Results

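The genes described here are 37 interferon-stimulated genes, measured by RNA sequencing in the whole colon of 12 mice. They were chosen by name from the 54532 genes of the deposited table, and all 37 were found under their own symbols. All 37 also passed the filter on low values, which left 24102 genes for the tests. The lowest count of any of them in any library was 15, for Ifit3b.

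Each of 4 groups held 3 libraries. Tmem173fl/fl mice carry floxed alleles of Tmem173, which encodes STING, and served as littermate controls without Cre. Tmem173iΔmye mice carry the same floxed alleles and CreERT2, a Cre recombinase switched on by tamoxifen, at Lyz2. Lyz2 is a gene of macrophages, monocytes and neutrophils, so that non-myeloid cells of the colon keep Tmem173. All mice were of the C57BL/6N background and between 6 and 8 weeks old, and all groups received 5 tamoxifen injections, untreated controls included. The colitic mice had 7 days of dextran sulfate sodium (DSS) in their water and then 1 day without it. DSS damages the epithelial lining of the colon. The colitic Tmem173iΔmye libraries bear the replicate numbers 1, 2 and 5, and the other groups bear 1, 2 and 3.

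Interferons are secreted proteins that cells release when they sense viral or displaced nucleic acids. Type I and type III interferons bind their receptors, Janus kinases then activate STAT proteins, and a complex that holds STAT2 and IRF9 binds the interferon-stimulated response element in the promoters of target genes. The targets include sensors of RNA and DNA, enzymes that block viral replication, and regulators that strengthen or end the response. In the intestine, the epithelium responds mainly to type III interferon and the cells beneath it mainly to type I interferon. STING itself is an adaptor that turns cytosolic DNA, sensed by cGAS, into a signal through TBK1 and IRF3 towards interferon genes.

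The levels below are FPKM, counts scaled by gene length and by library total, and can therefore be set side by side between genes. In whole tissue, fewer cells of a type and less RNA per cell cannot be told apart. Library totals ran from 13823237 to 18718915 counts. In 2 libraries the interferon-stimulated genes stood apart as a set. Replicate 1 of the untreated Tmem173fl/fl group was the highest of its group for 37 of 37 genes, with a median ratio of 1.95 to the mean of the other 2. Replicate 2 of the colitic Tmem173fl/fl group was the highest of its group for 37 of 37, with a median ratio of 2.02 and up to 4.63 for Ifit2. Calls and medians over the 37 genes that rest on these libraries are also given without 1 or both, in places as a range. The correlations are also given without both. Other counts and values of single genes are given with all libraries unless stated. Xist, which is expressed from the inactive X chromosome of females, was between 67.2 and 100.4 FPKM in replicate 3 of each untreated group and replicate 5 of the colitic Tmem173iΔmye group, and at 0.0308 FPKM or less elsewhere, and the 3 colitic Tmem173fl/fl libraries were all among the latter.

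Tmem173 was examined first, as the targeted gene. Its levels were 10.4, 6.07 and 9.73 FPKM in untreated Tmem173fl/fl mice and 7.29, 6.20 and 9.12 FPKM in untreated Tmem173iΔmye mice. In colitic mice they were 18.6, 19.2 and 16.6 FPKM in Tmem173fl/fl and 20.7, 10.2 and 13.2 FPKM in Tmem173iΔmye mice. The colitic groups overlapped, and Tmem173iΔmye minus Tmem173fl/fl was -0.28 on the log2 scale (SE, the standard error, 0.26, adjusted p 0.602 by edgeR). In whole colon these libraries showed no detectable decrease of Tmem173, and counts per gene do not resolve the removal of single exons, so the genotype labels could not be checked from this gene. By exact permutation, two-sided, p was 0.4, where 3 against 3 libraries allow no p under 0.1. Lyz2, at which CreERT2 sits, was at 111, 112.5 and 206 FPKM in untreated Tmem173fl/fl and at 70.0, 56.7 and 85.8 FPKM in untreated Tmem173iΔmye mice. These groups did not overlap, at -1.01 (SE 0.23, edgeR adjusted p 1.0). In colitic mice Lyz2 was at 366, 386 and 259 FPKM in Tmem173fl/fl and at 242, 173 and 265 FPKM in Tmem173iΔmye mice, where the groups overlapped, at -0.54 (edgeR adjusted p 0.2663).

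Summed over the 37 genes, the untreated colon held 3473, 1877 and 1708 FPKM in Tmem173fl/fl mice and 1675, 2165 and 1967 FPKM in Tmem173iΔmye mice. The sums were 407.5, 697.8 and 332.0 FPKM in colitic Tmem173fl/fl mice and 883.2, 1093 and 726.8 FPKM in colitic Tmem173iΔmye mice. All 6 colitic sums lay below all 6 untreated sums, and the colitic Tmem173iΔmye sums lay above the colitic Tmem173fl/fl sums.

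**Figure D1:**
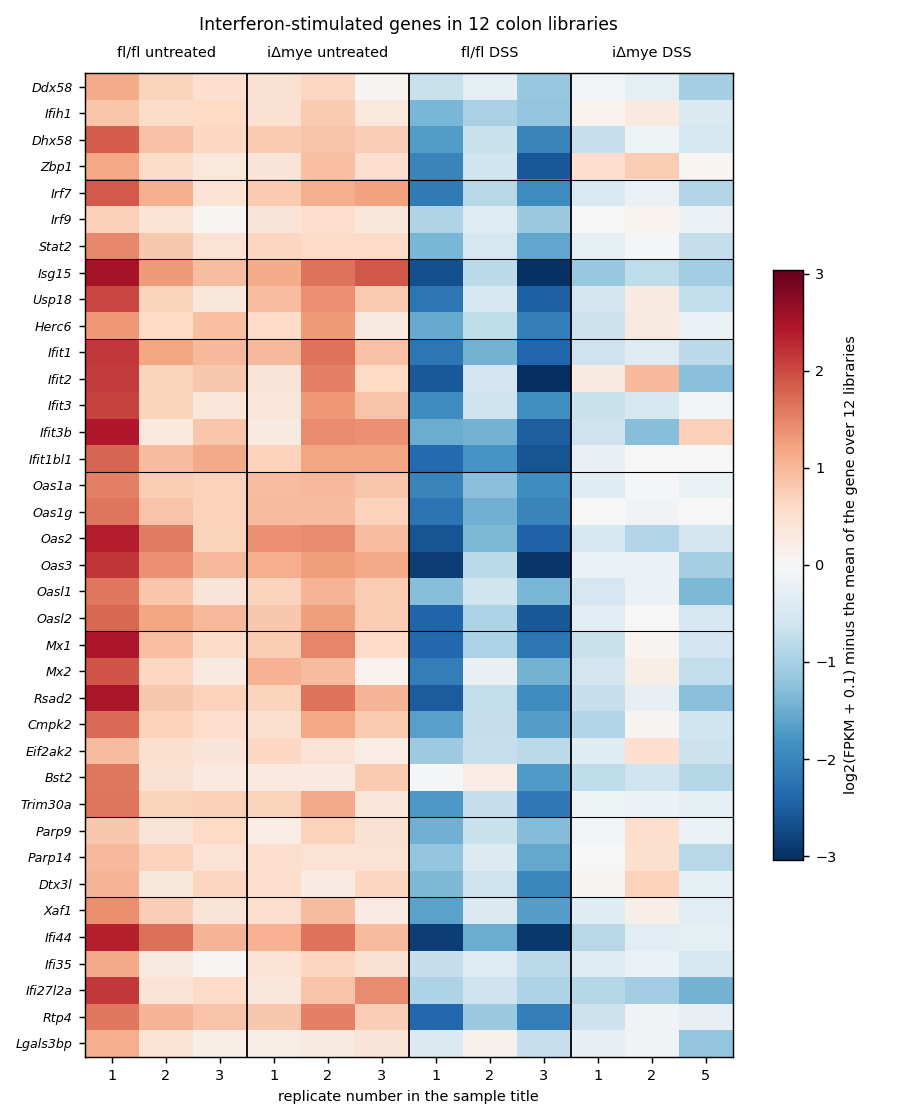
Each row is an interferon-stimulated gene, grouped by role, and each column is a library, named by its replicate number. The colour is log2(FPKM + 0.1) minus the mean of the gene over the 12 libraries, and it shows replicate 1 of untreated Tmem173fl/fl mice and replicate 2 of colitic Tmem173fl/fl mice above the other libraries of their groups for 37 of 37 genes.

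The most abundant member was Ifit1bl1 (ENSMUSG00000079339, GRCm38 chromosome 19, 34592888 to 34601968), a protein-coding member of the IFIT family, whose proteins bind foreign RNA. It was at 492, 280 and 321 FPKM in untreated Tmem173fl/fl mice. Lgals3bp (ENSMUSG00000033880, chromosome 11, 118392751 to 118402092), which encodes a secreted glycoprotein that binds galectins, was next over all libraries. It was at 331, 208 and 179 FPKM in the same mice. Isg15 (ENSMUSG00000035692, chromosome 4, 156199424 to 156200818), which encodes a ubiquitin-like protein that is joined to other proteins, was at 305, 130 and 101 FPKM. At the other end, Mx2, which is annotated as a polymorphic pseudogene, averaged 3.73 FPKM and Herc6 4.22 FPKM over the 12 libraries.

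The genes lay on 14 chromosomes, and 18 of them in 6 clusters in which neighbours were less than 200 kb apart. The largest was the Ifit cluster on chromosome 19, from 34550694 to 34650009, with Ifit2, Ifit3, Ifit1bl1, Ifit3b and Ifit1. On chromosome 5, Oas2, Oas3, Oas1g and Oas1a lay between 120730333 and 120907521, and Oasl2 and Oasl1 between 114896936 and 114937915. The other clusters were Rsad2 with Cmpk2, Mx1 with Mx2, and Parp14 with Dtx3l and Parp9. Related genes can share reads. Of the 100-base stretches of its longest protein-coding transcript, Oas1a shared 40.9% with Oas1g, and Ifit3 likewise shared 31.7% with Ifit3b. How such reads were assigned is not given in the sources used here, so the split within these pairs is uncertain. Parp9 and Dtx3l overlap by 682 bases on opposite strands, and the library kit does not mark strand.

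Promoter sequences of RefSeq (GRCm38.p6), each from 250 bases before to 50 bases after a gene's start, matched 27 of the 37 genes by symbol. The core of the interferon-stimulated response element was searched on both strands as 2 copies of GAAA with 2 bases of any kind between them, and matches could overlap. It was present in 15 of 27 genes (55.6%), against 3.99% of the 27025 genes with such a promoter. At least 2 matches were present in 7 of 27 (25.9%), against 0.266% of all. The STAT dimer motif TTCNNNGAA was present in 5 of 27 (18.5%), against 9.55% of all. A match describes these letters in this window and is no evidence of binding. The stretches below show matches in 1 promoter each of 6 genes. Of these, 5 are shown because their values are compared in detail below, and Oas1g because it shares sequence with Oas1a. They are written from 5′ to 3′ on the strand of the gene, with the matches in capitals.
Isg15, chr4:156200850-156200921, minus strand: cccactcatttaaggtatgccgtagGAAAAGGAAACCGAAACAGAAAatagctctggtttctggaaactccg
Ifit1, chr19:34640760-34640838, plus strand: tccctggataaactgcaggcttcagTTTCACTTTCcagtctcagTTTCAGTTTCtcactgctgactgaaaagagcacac
Ifit1bl1, chr19:34602038-34602097, minus strand: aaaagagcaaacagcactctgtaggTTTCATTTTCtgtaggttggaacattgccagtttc
Oas1a, chr5:120907526-120907570, minus strand: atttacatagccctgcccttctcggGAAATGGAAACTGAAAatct
Oas1g, chr5:120887614-120887656, minus strand: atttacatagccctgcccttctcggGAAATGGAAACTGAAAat
Bst2, chr8:71537562-71537627, minus strand: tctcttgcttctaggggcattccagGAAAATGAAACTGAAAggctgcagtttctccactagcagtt
Isg15 held 3 overlapping matches that began 78 bases before its start. The Oas1a and Oas1g stretches differed in length and shared their matches, which began 20 and 18 bases before the start. Ifit1bl1 has a second RefSeq promoter with a match that began 23 bases before its start and is not shown. The Ifit3 and Ifit3b stretches, also not shown, held 2 matches each. Bst2 held 2 matches.

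The effect of DSS in Tmem173fl/fl mice shows what colitis changed while STING was present. Interferon-stimulated genes fell together, by a median of 2.49 on the log2 scale, against a median of 0.03 over all genes tested. Of the 37 genes, 35 were called lower and 0 higher by edgeR, where a call needs an adjusted p (Benjamini-Hochberg) under 0.05 together with a log2 change of 1 or more in either direction. Of all genes tested, 7.61% were called lower and 14.9% higher, and 48.6% had a value below 0, against 37 of these 37. For 37 of 37 genes every colitic library lay below every untreated library, which held for 23.6% of all genes. The falls ran from 4.12 for Ifi44 to 0.91 for Lgals3bp.

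All 4 sensors fell. Zbp1 (ENSMUSG00000027514, chromosome 2, 173206612 to 173218923), a sensor of Z-form nucleic acids that can start necroptosis, was at 76.9, 50.4 and 42.8 FPKM without DSS and at 8.44, 22.3 and 5.62 FPKM with it. The groups did not overlap, and Zbp1 fell by 2.20 (SE 0.45, edgeR adjusted p 0.003884). The RNA sensors Ddx58 (RIG-I) and Ifih1 (MDA5) and their relative Dhx58 (LGP2) fell by 1.44, 1.84 and 2.57.

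The 3 transcription factors fell as well. Irf7 (ENSMUSG00000025498, chromosome 7, 141262706 to 141266481), which drives the second wave of type I interferon genes, went from 169, 97.6 and 61.7 FPKM to 10.4, 25.7 and 12.2 FPKM. It fell by 2.74 (SE 0.42, edgeR adjusted p 0.0007603). Stat2 and Irf9, which encode parts of the complex named above, fell by 2.04 and 1.18. Irf9 overlaps Rnf31 by 123 bases on the same strand.

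Of the ISG15 system, Isg15 went from 305, 130 and 101 FPKM to 8.25, 30.4 and 6.49 FPKM and fell by 3.53 (SE 0.61, edgeR adjusted p 0.001438). Usp18, which removes ISG15 from proteins and dampens receptor signalling, fell by 2.64. Herc6, the mouse ligase for ISG15, fell by 2.40.

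The IFIT and OAS families held most of the large falls. Ifit1bl1 went to 28.1, 41.3 and 23.2 FPKM, a fall of 3.54 (SE 0.29, edgeR adjusted p 1.558e-05), or 11.7-fold. Ifit1, whose protein binds RNA caps that lack methylation, went from 139, 72.5 and 62.6 FPKM to 6.82, 11.6 and 5.81 FPKM and fell by 3.48 (SE 0.36, edgeR adjusted p 6.553e-05). All 5 IFIT genes were called. Those OAS proteins that are active synthetases make short adenylate chains that activate RNase L. All 6 genes of the OAS family were called. Oas2 showed the second largest fall of the 37 genes, from 75.1, 42.8 and 23.1 FPKM to 2.26, 5.52 and 2.52 FPKM, or 3.75 on the log2 scale (SE 0.47, edgeR adjusted p 0.0002092). Oasl2 (ENSMUSG00000029561, chromosome 5, 114896936 to 114912234), the most abundant OAS gene, went from 149, 102 and 87.9 FPKM to 8.17, 23.3 and 7.34 FPKM. It fell by 3.10 (SE 0.44, edgeR adjusted p 0.0004296).

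Among the other antiviral effectors, 6 of 7 were called. Mx1, of a family of antiviral GTPases, fell by 3.27, and Rsad2 (viperin), a radical SAM enzyme, fell by 3.13. Eif2ak2, which encodes PKR, a kinase that stops translation on double-stranded RNA, fell by 1.502, and Trim30a, of the tripartite motif family, by 2.49. The exception was Bst2 (ENSMUSG00000046718, chromosome 8, 71534255 to 71537456), the tetherin that holds budding virus at the cell surface. Bst2 went from 168, 75.4 and 67.1 FPKM to 54.0, 64.6 and 16.7 FPKM. Its highest colitic library lay just below its lowest untreated library, and the fold change was -1.17 (SE 0.47, edgeR adjusted p 0.07808).

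Parp9, Parp14 and Dtx3l, which encode ADP-ribosyltransferases and a ubiquitin ligase partner, were all called. Parp14 (ENSMUSG00000034422, chromosome 16, 35832874 to 35871544) went from 56.1, 45.4 and 37.9 FPKM to 12.1, 21.2 and 9.50 FPKM and fell by 1.68 (SE 0.29, edgeR adjusted p 0.00136). Of the remaining 6 genes, 5 were called. Ifi44, a cytoplasmic protein, showed the largest fall, from 34.1, 21.2 and 13.6 FPKM to 0.822, 2.25 and 0.779 FPKM, or 4.12 on the log2 scale (SE 0.47, edgeR adjusted p 0.0001095) and 17.4-fold. Xaf1, whose protein binds the apoptosis inhibitor XIAP, fell by 2.04 and Ifi35 by 1.19. Lgals3bp went from 331, 208 and 179 FPKM to 114, 168 and 94.8 FPKM. Its adjusted p was 0.02615, and at -0.91 (SE 0.27) its change did not reach the size a call needs. Lgals3bp was the single gene of the 37 that was called in none of the comparisons.

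Without replicate 1 of the untreated group, 33 of the 37 genes were called and the median was -1.94. Without replicate 2 of the colitic group, all 37 were called and the median was -3.02. Without both libraries, a fit added after the data were seen, 34 were called and the median was -2.64. Single folds moved as well. Over 19 alternative fits Ifi44 lay between -4.85 and -3.36, Isg15 between -4.60 and -2.90 and Ifit2 between -4.16 and -2.37. Ifi44, Isg15 and Ifit2 were called in all 19. Among the 19, the fit without libraries with Xist and that without replicate 3 of the untreated group are the same.

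**Figure D2:**
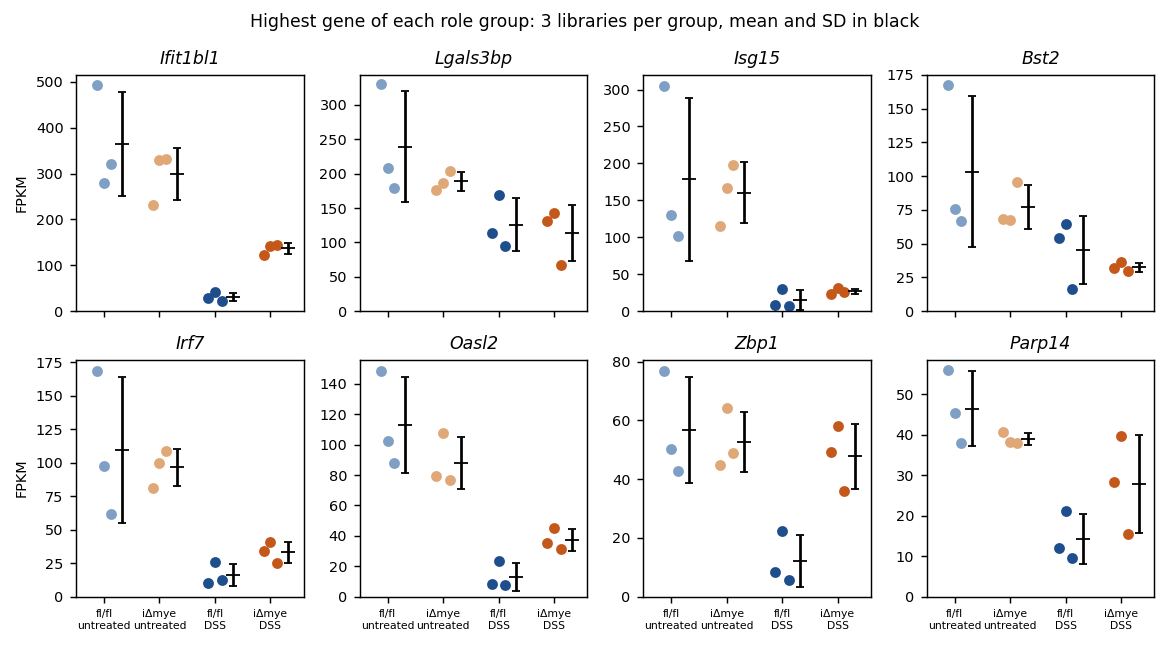
The plots give FPKM on linear axes for the most abundant gene of each of 8 role groups, with 1 point per library and the mean and SD over 3 libraries in black. Ifit1bl1 fell to between 23.2 and 41.3 FPKM in colitic Tmem173fl/fl mice and to between 123 and 145 FPKM in colitic Tmem173iΔmye mice, while the 2 colitic genotypes overlapped for Isg15, Irf7, Parp14, Bst2 and Lgals3bp.

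In Tmem173iΔmye mice the effect of DSS was smaller in size for 36 of the 37 genes. Of the 37, 19 were called lower and 0 higher, against 0.597% of all genes called lower. The median was -1.14, against 0.02 over all genes, and 37 of 37 values were below 0, against 48.1% of all genes. Every colitic library lay below every untreated library for 28 of 37 genes, against 9.25% of all genes. The range ran from -2.59 for Isg15 to -0.16 for Zbp1.

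The role groups differed in how many of their genes were called. Of the OAS family 5 of 6 were called, of the IFIT family 3 of 5, of the other antiviral effectors 4 of 7 and of the ISG15 system 2 of 3. Of the sensors 1 of 4 was called, of the transcription factors 1 of 3, of the remaining genes 3 of 6, and of Parp9, Parp14 and Dtx3l 0 of 3.

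Isg15 fell from 116, 167 and 198 FPKM to 23.9, 31.3 and 25.6 FPKM, by 2.59 (SE 0.24, edgeR adjusted p 0.0007694). Its colitic libraries lay close together and far below the untreated ones. Ifi27l2a, a small protein of mitochondria and the nuclear envelope, went from 44.2, 64.2 and 94.6 FPKM to 19.2, 16.8 and 12.9 FPKM. It fell by 2.07 (SE 0.31, edgeR adjusted p 0.01081), beside a fall of 2.09 in Tmem173fl/fl mice. Oas2 went from 38.0, 38.9 and 27.5 FPKM to 10.2, 7.65 and 9.65 FPKM and fell by 1.94 (SE 0.22, edgeR adjusted p 0.002714). Rsad2 and Ifit1 fell by 1.898 and 1.84 (SE 0.32 and 0.25, edgeR adjusted p 0.01582 and 0.006509), to between 3.44 and 7.02 FPKM and between 18.0 and 23.8 FPKM. Irf7 went from 81.2, 99.6 and 109 FPKM to 33.7, 40.7 and 24.9 FPKM and fell by 1.56 (SE 0.23, edgeR adjusted p 0.01095). Oasl2 and Ifit1bl1 fell by 1.25 (SE 0.23, edgeR adjusted p 0.02276) and 1.14 (SE 0.21, edgeR adjusted p 0.02639).

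Bst2 was the single gene called here and not in Tmem173fl/fl mice. It went from 68.0, 67.3 and 95.6 FPKM to 31.98, 36.4 and 29.9 FPKM and fell by 1.25 (SE 0.21, edgeR adjusted p 0.01623), a size close to the -1.17 of Tmem173fl/fl mice, with less spread between libraries. Zbp1 was at 44.7, 64.2 and 49.0 FPKM without DSS and 49.1, 58.2 and 35.9 FPKM with it. These groups overlapped, at -0.16 (SE 0.23, edgeR adjusted p 0.8004). Parp14 was at 40.6, 38.3 and 38.0 FPKM without DSS and at 28.3, 39.6 and 15.5 FPKM with it, at -0.50 (SE 0.30, edgeR adjusted p 0.4652). Lgals3bp stood at -0.75 (SE 0.27, edgeR adjusted p 0.2116).

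The count of 19 depended on single libraries and on the test. Leaving out replicate 1, 2 or 3 of the untreated group gave 6, 3 and 4 calls, leaving out replicate 1 of the colitic group gave 9, and limma on log2(FPKM + 0.1) called 1, while the median stayed between -1.27 and -1.05 when any library was left out.

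**Figure D3:**
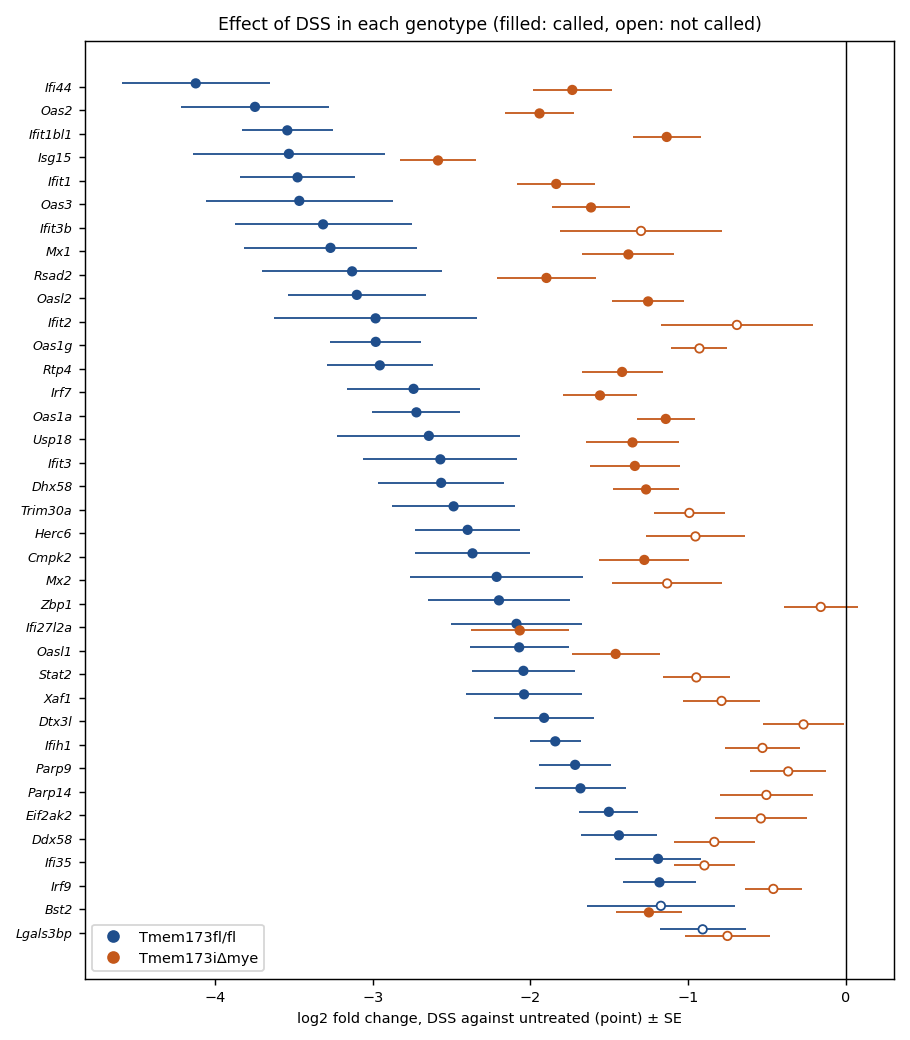
Points are log2 fold changes of DSS against untreated mice for the 37 genes, with bars of 1 SE, in Tmem173fl/fl mice (blue) and Tmem173iΔmye mice (orange). Filled points passed the call, 35 in Tmem173fl/fl and 19 in Tmem173iΔmye mice, and the blue point lies to the left of the orange point for 36 of 37 genes.

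The difference between the 2 DSS effects was tested directly as an interaction over all 12 libraries. A positive value means that a gene fell less with DSS in Tmem173iΔmye mice. The interaction was above 0 for 37 of 37 genes, though for 36 with RLE scaling and 35 with library totals, and 52.1% of all genes were above 0. Without replicate 1 of the untreated Tmem173fl/fl group it was above 0 for 33 of 37, with 3 called. The median was 1.38, against 0.04 over all genes. Of the 37 genes, 6 were called above 0 and 0 below, against 0.934% of all genes called above 0. These were Ifit1bl1, Ifi44, Oas1g, Oas1a, Parp9 and Ifih1.

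Ifit1bl1 showed the largest difference, at 2.48 (SE 0.36, edgeR adjusted p 0.005896), since it fell by 3.54 in Tmem173fl/fl mice and by 1.14 in Tmem173iΔmye mice. Ifi44 was next at 2.47 (SE 0.57, edgeR adjusted p 0.03627), with falls of 4.12 and 1.73. The paired synthetases Oas1g and Oas1a, which share sequence, stood at 2.13 (SE 0.35, edgeR adjusted p 0.00793) and 1.66 (SE 0.34, edgeR adjusted p 0.02185). Parp9 was at 1.42 (SE 0.35, edgeR adjusted p 0.04587), and its neighbour Dtx3l, with which it overlaps, at 1.72 (edgeR adjusted p 0.05896). Ifih1, the sensor of long double-stranded RNA, was at 1.39 (edgeR adjusted p 0.0237).

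Several genes had large interactions with a wide spread and did not pass. Zbp1 was at 2.12 (SE 0.57, edgeR adjusted p 0.06559) and Oasl2 at 1.92 (SE 0.53, edgeR adjusted p 0.06976). Ifit2, at 2.37, had an SE of 0.92. Isg15 was at 1.03 (SE 0.71, edgeR adjusted p 0.4777), Irf7 at 1.26 (SE 0.52, edgeR adjusted p 0.2211) and Parp14 at 1.25 (SE 0.45, edgeR adjusted p 0.1639). The values of 3 further genes lay near 0. Bst2 was at 0.00097 (SE 0.62), Ifi27l2a at 0.10 (SE 0.57) and Lgals3bp at 0.23 (SE 0.42).

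Without both libraries that stand apart, an alternative added after the data were seen, 35 of 37 values were above 0, 10 genes were called and the median was 1.43. Ifit1bl1 and Oas1g were called in each of 12 fits that left out a library, and over those fits the count ran from 2 to 17.

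Colitic mice of both genotypes were then set against each other, to ask what the deletion of myeloid STING changes in colitis. This comparison shares the colitic Tmem173fl/fl libraries with the effect of DSS in Tmem173fl/fl mice, so the values of the 2 comparisons are not independent. Of the 37 genes, 34 had a value above 0 (higher in colitic Tmem173iΔmye mice), against 51.4% of all genes, with a median of 1.2, against 0.02 over all genes. Of the 37, 6 were called higher and 0 lower, against 0.822% of all genes called higher. For 19 of 37 genes every colitic Tmem173iΔmye library lay above every colitic Tmem173fl/fl library, against 10.8% of all genes. The 3 genes with a value below 0 were Bst2, Ifi27l2a and Lgals3bp.

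Ifit1bl1 was at 123, 143 and 145 FPKM in colitic Tmem173iΔmye mice, beside 28.1, 41.3 and 23.2 FPKM in colitic Tmem173fl/fl mice. The groups were far apart, and the gene was 4.51-fold higher, or 2.17 on the log2 scale (SE 0.25, edgeR adjusted p 0.009901). Oas1g was at 23.4, 21.4 and 22.8 FPKM beside 4.82, 8.37 and 5.64 FPKM, higher by 1.87 (SE 0.24, edgeR adjusted p 0.01368). Oas1a was at 36.3, 45.5 and 41.3 FPKM beside 11.6, 19.6 and 12.8 FPKM, higher by 1.51 (SE 0.23, edgeR adjusted p 0.01909). All 3 genes showed little spread within the colitic Tmem173iΔmye group.

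Ifit1 was at 20.4, 23.8 and 18.0 FPKM beside 6.82, 11.6 and 5.81 FPKM, higher by 1.38 (SE 0.28, edgeR adjusted p 0.03812). Ifih1 was at 19.9, 22.7 and 13.5 FPKM beside 6.95, 9.27 and 7.97 FPKM, higher by 1.24 (SE 0.22, edgeR adjusted p 0.02936). Parp9 was at 26.2, 40.2 and 24.2 FPKM beside 9.94, 17.4 and 11.0 FPKM, higher by 1.26 (SE 0.28, edgeR adjusted p 0.04954). Of these 6 genes, 5 were also called in the interaction, which uses the same libraries.

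Zbp1 had the second largest value, at 1.99 (SE 0.47, edgeR adjusted p 0.06137). It was at 49.1, 58.2 and 35.9 FPKM beside 8.44, 22.3 and 5.62 FPKM, so the groups did not overlap, but it did not pass. Ifi44 and Ifit2 followed at 1.91 and 1.92 (edgeR adjusted p 0.05197 and 0.1833). Oasl2 stood at 1.54 (SE 0.43, edgeR adjusted p 0.09331), Irf7 at 1.06 (SE 0.35, edgeR adjusted p 0.1392), Parp14 at 0.98 (SE 0.39, edgeR adjusted p 0.2057) and Isg15 at 0.85 (SE 0.53, edgeR adjusted p 0.4101). For Isg15 the colitic Tmem173fl/fl libraries were at 8.25, 30.4 and 6.49 FPKM and the colitic Tmem173iΔmye libraries at 23.9, 31.3 and 25.6 FPKM, and replicate 2 of the former lay within the range of the latter. Bst2 stood at -0.44 (SE 0.42, edgeR adjusted p 0.5991) and Lgals3bp at -0.13 (SE 0.32, edgeR adjusted p 0.8663).

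The count of 6 depended on single libraries and on the test, with 0 called by limma on log2(FPKM + 0.1) and 18 by DESeq2. Leaving out colitic Tmem173fl/fl replicate 1, 2 or 3 gave 0, 15 and 2 calls. It was 1 when colitic Tmem173iΔmye replicate 2 was left out, while the median stayed between 0.91 and 1.59 when any library was left out.

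**Figure D4:**
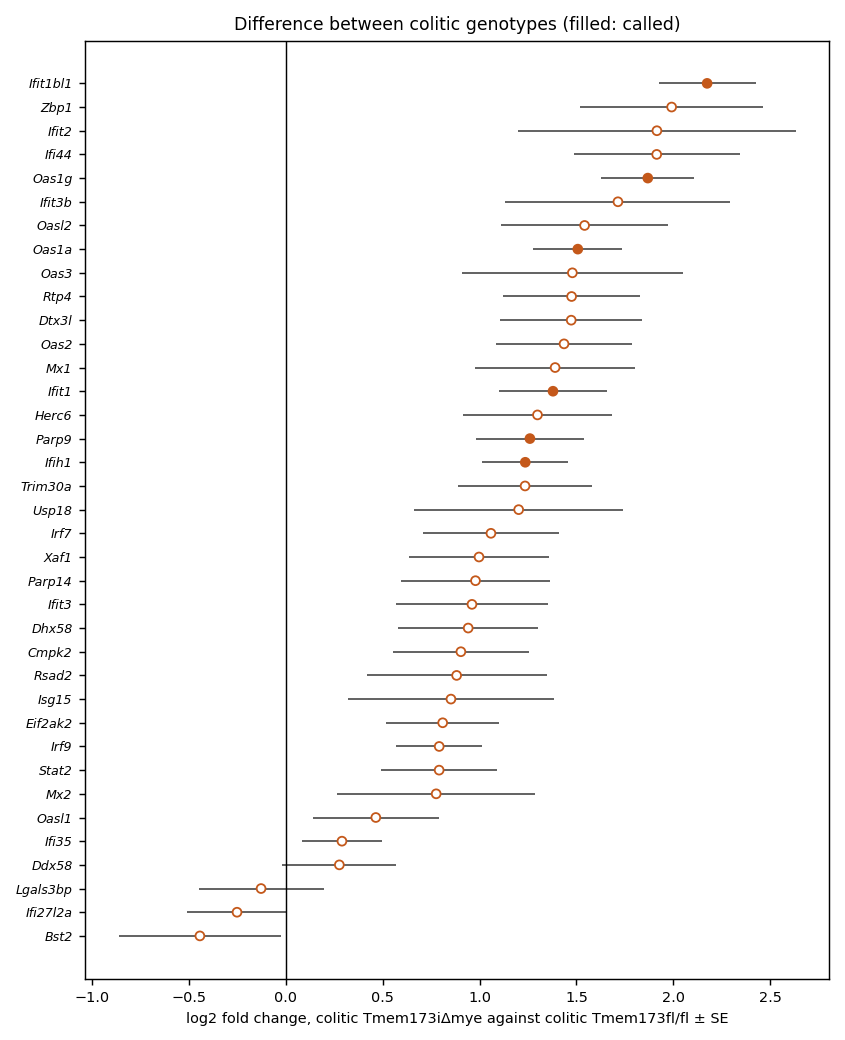
Points are log2 fold changes of colitic Tmem173iΔmye against colitic Tmem173fl/fl mice for the 37 genes, with bars of 1 SE, and filled points passed the call. Ifit1bl1, at 2.17, lies at the top, 34 of 37 points lie to the right of 0, and Bst2, at -0.44, lies at the bottom.

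Between untreated genotypes, 0 of 37 interferon-stimulated genes were called by edgeR, against 0% of all genes. Of the 37 genes 0 had an unadjusted p under 0.05, against 720 of all genes tested, and DESeq2 and limma called 0 of the 37. The groups overlapped for 37 of 37 genes. The value was below 0 for 36 of 37, against 50.3% of all genes, with a median of -0.32, and it ran from -0.56 for Mx1 to 0.01 for Irf9. Without replicate 1 of the untreated Tmem173fl/fl group, 25 of 37 lay above 0 and the median was 0.11. Among the genes described above, Ifit1bl1 was at 364 ± 113 FPKM in Tmem173fl/fl and 298 ± 56.8 FPKM in Tmem173iΔmye mice, and Isg15 at 179 ± 110 and 160 ± 41.3 FPKM (SD, n = 3 libraries each). Bst2 was at 103 ± 55.8 and 77.0 ± 16.1 FPKM, Irf7 at 109 ± 54.5 and 96.5 ± 13.99 FPKM, and Lgals3bp at 239 ± 80.6 and 189 ± 14.1 FPKM. Their log2 values in this comparison were -0.29, -0.16, -0.43, -0.18 and -0.34. Oasl2, Zbp1 and Parp14 stood at -0.36, -0.11 and -0.25. Each of these 8 values had an SE between 0.16 and 0.33 and an edgeR adjusted p of 1.

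Over the 12 libraries the median Pearson correlation of the 666 gene pairs was 0.92 on log2(FPKM + 0.1), and 441 pairs were above 0.9. These points share the 4 groups and the 2 libraries that stand apart. With each library expressed as its deviation from its group mean, the median was 0.78 and the pairs ran from -0.29 to 0.98. Without both libraries that stand apart, also added after the data were seen, the median over 10 libraries was 0.92 for the levels and 0.41 for the deviations, whose pairs ran from -0.85 to 0.97. The correlations below are over 12 libraries. The closest pair was Ifi44 with Rtp4, a chaperone of receptors, at 0.99. Ifit1bl1 lay closest to Oas1a, at 0.99, and Isg15 closest to Irf7, at 0.98. Bst2, Lgals3bp and Ifi27l2a had the lowest median correlations with the other genes, at 0.74, 0.77 and 0.79.

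Upstream of these genes, the interferons themselves were barely present. Of 10 interferon genes listed, Ifna1, Ifna2, Ifna4, Ifna5 and Ifne had 0 counts in all 12 libraries, and Ifnb1 had 1 count in all. Ifnl2 and Ifnl3, the mouse type III interferons, had 13 and 8 counts over all libraries. Ifnl2 was at 0.338, 0.250 and 0.421 FPKM in untreated Tmem173iΔmye and 0.105, 0 and 0 FPKM in untreated Tmem173fl/fl mice. It was at 0 in every colitic library. With DSS in Tmem173iΔmye mice edgeR called 0 of the 4 interferon genes tested, and limma on log2(FPKM + 0.1) called 1. Ifng, the type II interferon of T and natural killer cells, was at 1.76, 0.764 and 1.47 FPKM in untreated and 0.0845, 0.478 and 0 FPKM in colitic Tmem173fl/fl mice and fell by 2.65 (edgeR adjusted p 0.02606), a call that limma on log2(FPKM + 1) did not make. In Tmem173iΔmye mice Ifng was at 0.824, 2.12 and 0.822 FPKM without DSS and 0.385, 1.33 and 0.137 FPKM with it, at -1.03 (edgeR adjusted p 0.5611).

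Of 18 receptors and signal transducers tested, 4 rose and 2 fell with DSS in Tmem173fl/fl mice, where 14.9% of all genes were called higher and 7.61% lower. Ifnar2, a chain of the type I interferon receptor, rose by 2.09 (edgeR adjusted p 2.38e-05), from between 2.54 and 3.03 FPKM to between 9.33 and 13.2 FPKM. Socs3, an inhibitor of cytokine signalling, rose by 4.13 (edgeR adjusted p 9.27e-07), and Stat3 and Irf5 rose by 1.06 and 1.33. Irf1, a transcription factor of the interferon response, fell by 1.30. Ifnlr1, a chain of the type III receptor, was at -0.27 (edgeR adjusted p 0.2452). In Tmem173iΔmye mice 1 of 18 was called, Socs3, which rose by 2.55, while limma called 0. Of all genes, 1.48% were called higher and 0.597% lower with DSS in these mice. Between colitic genotypes 0 of 18 were called by edgeR, with 8 at an unadjusted p under 0.05, while DESeq2 called 2 and limma 0. There 0.822% of all genes were called higher and 1.99% lower. In the interaction 0 of 18 were called by edgeR, with 5 at an unadjusted p under 0.05, while DESeq2 called 3 and limma 0. Of the 24102 genes tested, 614 were called in the interaction, in either direction.

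Of 11 sensors and adaptors tested upstream of interferon, 2 rose and 2 fell with DSS in Tmem173fl/fl mice, beside the same 14.9% and 7.61% of all genes. Tlr3, an endosomal receptor of double-stranded RNA, fell by 1.37 (edgeR adjusted p 2.889e-05), and Mb21d1, which encodes cGAS, fell by 1.43. Tlr7 rose by 1.66 and Tmem173 by 1.07. In Tmem173iΔmye mice 0 of 11 were called by edgeR, with 3 at an unadjusted p under 0.05, and between colitic genotypes 0 of 11, with 2. Of all genes, 1.48% were called higher and 0.597% lower in the former comparison, and 0.822% and 1.99% in the latter. DESeq2 called 1 in each of these comparisons and limma 0. Tlr3 had an interaction of 1.23 (edgeR adjusted p 0.04789), where 0.934% of all genes were called above 0, and limma called 0 of 11 there.

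A further 56 interferon-stimulated genes outside the 37 were tested. With DSS in Tmem173fl/fl mice 31 fell and 5 rose, against 7.61% and 14.9% of all genes, with a median of -1.11. Apol9b, of the apolipoprotein L family, fell by 4.41 and Slfn9, of the Schlafen family, by 3.27. The genes that rose were Ifitm1, Ifitm2 and Ifitm3, which encode membrane proteins that hinder viral entry, and Ifi205 and Ifi207, of the PYHIN family. Ifitm1 rose by 3.84, from between 6.87 and 11.6 FPKM to between 94.2 and 167 FPKM. In Tmem173iΔmye mice 5 fell and 1 rose, against 0.597% and 1.48% of all genes, with a median of -0.43, where DESeq2 called 9 in all and limma 0 at a pseudocount of 0.1 and 2 at 1. Between colitic genotypes Epsti1 and Samd9l were higher, by 1.39 and 1.03, and Ifitm1 was lower, at -1.84 (edgeR adjusted p 0.01824). Of all genes 0.822% were called higher and 1.99% lower between colitic genotypes. There DESeq2 called 9 of the 56 and limma 0 at a pseudocount of 0.1 and 2 at 1.

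Markers of the cell types of the colon moved with these results. The summed FPKM of 10 epithelial markers was between 5772 and 7451 in untreated mice, between 2256 and 3905 in colitic Tmem173fl/fl mice and between 4725 and 5594 in colitic Tmem173iΔmye mice. With DSS in Tmem173fl/fl mice 5 of these 10 markers fell, as did 4 of 7 goblet cell and 5 of 8 colonocyte markers, while 1 colonocyte marker rose, where 7.61% of all genes were called lower and 14.9% higher. The median of -0.97 over the 10 epithelial markers stood beside -2.49 for the interferon-stimulated genes. Between colitic genotypes 10 of the 10 epithelial markers were above 0, against 51.4% of all genes, with 1 called, against 0.822% called higher. Their median was 0.80, beside 1.2 for the interferon-stimulated genes, and limma called 0 of the 10. In the interaction 10 of 10 were above 0, against 52.1% of all genes, with 2 called, against 0.934% called above 0. The median was 0.82, beside 1.38, and limma called 0 at a pseudocount of 0.1 and 2 at 1. The ratio of the summed interferon-stimulated genes to the summed epithelial markers was 0.486, 0.271 and 0.296 in untreated and 0.131, 0.309 and 0.0850 in colitic Tmem173fl/fl mice. It was 0.279, 0.317 and 0.264 in untreated and 0.187, 0.196 and 0.132 in colitic Tmem173iΔmye mice. On this ratio replicate 2 of colitic Tmem173fl/fl mice lay among the untreated libraries. The colitic genotypes overlapped through that library alone, and without it the highest Tmem173fl/fl value, 0.1309, lay just below the lowest Tmem173iΔmye value, 0.1319.

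The markers of several other cell types rose with DSS in Tmem173fl/fl mice, where 14.9% of all genes were called higher. Of 7 neutrophil markers 7 rose, and their sum went from between 44.7 and 105.5 FPKM to between 531 and 877 FPKM, beside 229 to 325 FPKM in colitic Tmem173iΔmye mice. Ly6g made up most of the untreated sums, at between 36.4 and 104 FPKM, and lay between 102 and 248 FPKM in both colitic groups, while S100a9 lay between 190 and 317 FPKM in colitic Tmem173fl/fl and between 8.51 and 52.9 FPKM in colitic Tmem173iΔmye mice. Of 6 fibroblast markers 6 rose, to sums between 1017 and 1275 FPKM from between 144.5 and 173 FPKM, beside 296 to 416 FPKM in colitic Tmem173iΔmye mice. Of 5 endothelial markers 5 rose and of 8 monocyte and macrophage markers 5 rose. The 5 erythroid markers rose too, to sums between 191.5 and 406 FPKM, beside 29.3 to 35.6 FPKM in colitic Tmem173iΔmye mice. Between colitic genotypes, 5 of 5 erythroid, 5 of 6 fibroblast, 4 of 7 neutrophil, 2 of 8 monocyte and macrophage and 2 of 5 endothelial markers were called lower in Tmem173iΔmye mice, against 1.99% of all genes. These are edgeR calls. In the same order, limma called 3, 1, 0, 0 and 0 markers at a pseudocount of 0.1 and 4, 3, 1, 1 and 0 at 1. In the same comparison edgeR called 3 of 8 colonocyte markers higher, against 0.822% of all genes, and limma called 0 at a pseudocount of 0.1 and 1 at 1. With DSS in Tmem173fl/fl mice 0 of 6 T cell, 0 of 4 B cell and 0 of 5 smooth muscle markers were called by edgeR, DESeq2 or limma, with 2, 0 and 2 at an unadjusted p under 0.05 by edgeR, and their medians were -0.48, 0.55 and -0.31. Plasmacytoid dendritic cells are known as strong producers of type I interferon. Their defining marker Siglech lay between 0.156 and 0.415 FPKM in untreated mice, between 0.291 and 0.450 FPKM in colitic Tmem173fl/fl mice and between 0.210 and 1.54 FPKM in colitic Tmem173iΔmye mice. Klk1, which other cells also express, made up nearly all of the sum of the 5 markers, at between 271 and 681 FPKM. Of the 5, 0 were called by edgeR, DESeq2 or limma in either genotype with DSS, with 1 at an unadjusted p under 0.05 by edgeR in each. With DSS in Tmem173iΔmye mice 1.48% of all genes were called higher and 0.597% lower. No marker of these lists was at 0 in every colitic library of a genotype. The part of cell composition in the values of the interferon-stimulated genes was not tested.

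**Figure D5:**
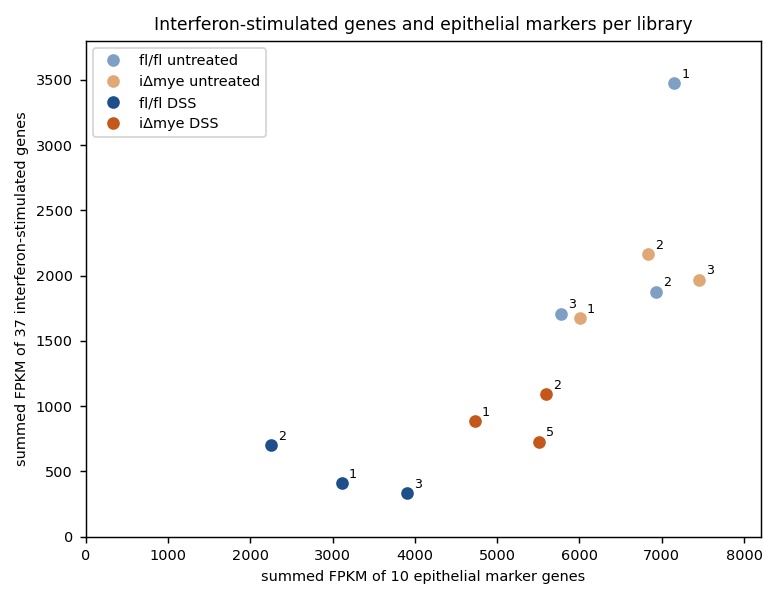
Each point is a library, named by its replicate number, with the summed FPKM of 10 epithelial markers on the horizontal axis and that of the 37 interferon-stimulated genes on the vertical axis, both linear. Untreated libraries lie at the upper right, the colitic Tmem173fl/fl libraries lie furthest to the left at between 2256 and 3905 FPKM of epithelial markers, and the colitic Tmem173iΔmye libraries lie between them.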

How the data were processed

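Total colon RNA was sequenced after poly(A) selection in 12 libraries. The submitters' processing notes name CASAVA 1.8, fastp, HISAT2 2.0.5, featureCounts 1.5.0-p3, DESeq2 1.20.0 and GRCm38 (mm10). The strand setting and the treatment of reads with several matches are not given in the sources used here. The authors deposited whole-number counts per gene and FPKM (per gene length and library total, with 1 further constant per library). The deposited table also holds the authors' fold changes, p-values and group means, which were not used.

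The counts were tested with edgeR 4.0.16 (TMM scaling, quasi-likelihood F test) in R 4.3.3, on the 24102 genes that reached 0.1 FPKM in 3 or more libraries. Each fit held the groups compared, and the interaction held all 12 libraries. P-values were adjusted over all genes tested (Benjamini-Hochberg). An SE is the log2 fold change divided by the square root of F. Labels do not say how the libraries of a group relate beyond being separate samples, so p-values measure the spread between these samples. No 2 libraries of a group agreed within sampling noise. The genes, roles and lists were chosen with earlier results of these data known. Fold changes with their SE are given for the gene with the highest mean FPKM of each role, the 5 largest changes called in each comparison and genes called nowhere. Alternatives were other filters, scalings and thresholds, DESeq2 1.42.0, limma 3.58.1 on log2(FPKM + 0.1) and log2(FPKM + 1), 1 fit of all groups, a replicate block, and libraries left out. The tests were tried on simulated counts. The values of 1 gene of the pathway lists are not reported here. Limma with a prior variance that follows the level (limma-trend), and the fit and correlations without both libraries that stand apart, were added after the data were seen. Scaling by library totals moved the median of all genes by more than 0.1 in some comparisons, as the closing section gives.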

Additional observations from a re-analysis of the deposited data

Results flagged for a closer look

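In 6 interferon-stimulated genes the effect of DSS differed between the genotypes by the interaction test of edgeR over all 12 libraries. On the log2 scale the effect in Tmem173iΔmye mice minus that in Tmem173fl/fl mice was 2.48 for Ifit1bl1, 2.47 for Ifi44, 2.13 for Oas1g, 1.66 for Oas1a, 1.42 for Parp9 and 1.39 for Ifih1. All 6 were called lower with DSS in Tmem173fl/fl mice. In Tmem173iΔmye mice Ifi44, Oas1a and Ifit1bl1 were called lower, and Oas1g, Ifih1 and Parp9 were not called, at -0.93, -0.53 and -0.36 (edgeR adjusted p 0.02644, 0.3171 and 0.5203). Of all genes tested, 0.934% were called above 0 in this test. Over 24 alternatives, Ifit1bl1 and Oas1g were called in all 24, Oas1a in 19, Ifih1 in 17, Ifi44 in 11 and Parp9 in 7, and the highest adjusted p over these fits was 0.03487 for Ifit1bl1 and 0.1371 for Parp9. The part of cell composition in these differences was not tested.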

How the results depend on the processing

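With DSS in Tmem173fl/fl mice, 37 of 37 genes were lower under all alternatives run. The count of calls ran from 33 to 37 and the median from -3.02 to -1.94 over the fits that left out a library. Scaling by library totals moved the median of all genes from 0.03 to 0.17 in this comparison and from 0.04 to -0.13 in the interaction. With DSS in Tmem173iΔmye mice the count of calls was 1 with limma at a pseudocount of 0.1 and 3 at 1, 2 and 2 with limma-trend, 10 in 1 fit of all groups, 12 without the libraries with Xist and between 3 and 20 without single libraries. There Dtx3l turned to 0.039 without the libraries with Xist, and Zbp1 lay between -0.31 and 0.033 without single libraries. Between colitic genotypes the count was 15 with no filter, 18 with DESeq2, 14 in 1 fit of all groups, 0 and 3 with limma, 2 and 2 with limma-trend, and between 0 and 15 without single libraries. Lgals3bp turned to 0.13 without the libraries with Xist and lay between -0.31 and 0.16 without single libraries. In the interaction the count was 17 with no filter, 15 with DESeq2, 2 with limma at a pseudocount of 0.1, 3 without the libraries with Xist, 10 without both libraries that stand apart, and between 2 and 17 without single libraries, whose medians ran from 1.09 to 1.87. Bst2 turned to -0.064 with no filter, -0.0056 with filterByExpr, -0.041 with RLE scaling, -0.20 with library totals, -0.039 with DESeq2, and -0.25 without both libraries that stand apart. Bst2 lay between -0.54 and 0.29 and Lgals3bp between -0.079 and 0.47 without single libraries. Between untreated genotypes, without single libraries, the median lay between -0.47 and 0.11, Isg15 between -0.44 and 0.47, Bst2 between -0.66 and 0.11, Irf7 between -0.47 and 0.28 and Zbp1 between -0.28 and 0.18. The causes were not tested.

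Libraries with the same replicate number did not deviate together, with correlations between -0.08 and 0.11. Those of differently numbered libraries ran from -0.27 to 0.18. The values show no sign of pairing by number. They cannot decide whether libraries shared a litter or batch, since they are deviations from means of 3 libraries. With a replicate block the count was 13 between colitic genotypes and 10 in the interaction, where Bst2 stood at -0.19. In colitic mice replicates 3 and 5 have no partner of the same number. The genotype effect in the blocked colitic fit therefore rests on replicates 1 and 2 alone. In the blocked interaction replicate 5 stands alone.

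The depth left at least 15 counts of each of the 37 genes in each library.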
